A study of Mus musculus with 6 samples.

Results

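Tropomyosin and cytoplasmic actin transcripts were followed through the poly(A) sites of 6 genes, Tpm1, Tpm2, Tpm3, Tpm4, Actb and Actg1. A site was taken as a member if its 3′ edge lay in, or up to 1000 bases downstream of, one of these genes on the same strand (GENCODE M21, GRCm38). This gave 17 of the 32688 sites in the series, 6 in Tpm1, 2 in Tpm2, 3 in Tpm3, 3 in Tpm4, 2 in Actb and 1 in Actg1, and 6 of the 14457 nuclear genes with a site. The genes were chosen by name as a family, with earlier results on the tag counts of these libraries in view, and the sites were selected on their positions in the deposited list. No test below is therefore independent support for a pattern. No site lay near the 1000 base limit, since the furthest member was 2 bases past its gene's end and the nearest same-strand site outside lay 9056 bases past Tpm2 and belonged to Gm12454.

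The samples were retinas of C57BL/6J mice at embryonic days 13.5, 15.5 and 18.5 (E13.5, E15.5, E18.5) and at postnatal days 0, 6 and 21 (P0, P6, P21), with 1 sample per stage and no allele or treatment named. PA-seq, which sequences the 3′ ends of polyadenylated RNA primed by oligo(dT), gave counts of tags per site in a pair of columns headed R1 and R2 at each stage. What R1 and R2 stand for was not stated, so both are shown apart and neither was used as a replicate. The series is about the choice between poly(A) sites while the retina develops.

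Actin filaments are polymers of globular actin, and in non-muscle cells nearly all of it is β-actin (Actb) and γ-actin (Actg1), proteins that differ by a few residues near the N terminus. Tropomyosins are coiled-coil dimers that join head to tail along the filament and set which myosins, severing proteins and cross-linkers can reach it. Each tropomyosin gene makes several isoforms through alternative first, internal and last exons, and the last exon sets the C terminus of the protein as well as the 3′ UTR, so a poly(A) tag reads out which last exon a transcript used. In the retina actin filaments shape growth cones, synapses, the junctions of the outer limiting membrane and the base of the photoreceptor outer segment.

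All 17 sites lay in the 3′ UTR of a coding last exon, or 1 or 2 bases past its annotated end (Tpm1 site 1 and Actg1). The sites below are those on which the results turn: the 3 alternative ends of Tpm3, 3 ends of Tpm1 in different last exons, and both ends of Actb. Sites are numbered from 5′ to 3′ within a gene. Each sequence is the 30 bases of annotated transcript up to the 3′ edge (for Tpm1 site 1, up to 1 base before it), written 5′ to 3′, with the poly(A) signal hexamer in capitals where one was found. On GRCm38 (mm10) the windows were chr3:90092098-90092127, chr3:90098751-90098780 and chr3:90100870-90100899 on the + strand for Tpm3. For Tpm1 they were chr9:67028848-67028877, chr9:67027974-67028003 and chr9:67023847-67023876 on the − strand. For Actb they were chr5:142903302-142903331 and chr5:142903119-142903148 on the − strand.
Tpm3 site 1: ccaaccccatATTAAAatgttaagctgcca
Tpm3 site 2: tattttctaacAATAAAagcactgacttga
Tpm3 site 3: ttttgaAATAAAgaaccagtccctccacga
Tpm1 site 1: agaagcaagaAATAAAacatttatacggta
Tpm1 site 2: cgcccagtgtaaAATAAAcactgtacgcta
Tpm1 site 4: gcagtagaAATAAAccgtttaaaaagtggt
Actb site 1: ctgcaaaaatttttttaaatcttccgcctt
Actb site 2: ccAATAAAagtgcacaccttaccttacaca

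The signal search covered the 40 bases ending at the edge, on the transcript strand only, since the signal is read in RNA. The hexamers searched were AATAAA, its common variant ATTAAA and 10 rarer single-base variants. The rarer ones were AGTAAA and ACTAAA, further TATAAA and CATAAA and GATAAA, then AATATA and AATACA and AATAGA, and last AAGAAA and AATGAA. A window with AATAAA was counted under it whatever else it held. AATAAA was found at 13 of the 17 sites and ATTAAA at 1, Tpm3 site 1. Of the 24860 sites of the series whose edge lay in, or up to 3 bases past, an annotated transcript, 57.7% held AATAAA and 16.7% held ATTAAA without it. Any of the 12 was found at 14 of the 17 member sites, 82.4%, and at 89.9% of those of the series. Tpm1 site 5, Tpm4 site 1 and Actb site 1 held none of them, and Tpm4 site 1 was followed by 10 A in 20 bases, a stretch on which oligo(dT) can prime. The 20 bases past the edge could be read only where an annotated transcript ran that far. At most member sites it did not, with 3 bases read at each Tpm3 site, 0 at Tpm1 site 1 and 4 at Actb site 2. Such a stretch was not looked for at those sites.

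Tags per library ran from 3286158 at P0 to 4656153 at E18.5, and 95.5% to 97.5% of them fell in nuclear genes. Levels are CPM, the tags of a gene scaled to the nuclear tags of its library with TMM factors, R1 and R2 summed unless a column is named. A floor of 3 tags was 0.644 to 0.913 CPM, and since tags are read from transcript ends whatever the transcript's length, genes were compared without scaling for it. Photoreceptor markers rose with stage in 6 of 6 cases, with a summed level of 806 CPM at E13.5 (1370 in R1 and 148 in R2) and 6806 CPM at P21 (7615 and 5899), and progenitor markers fell in 3 of 6, from a summed 2362 to 898 CPM. Lens crystallins and other lens markers were present in every library and uneven, from 185 CPM at P6 to 2114 CPM at E15.5 and 2455 CPM at P0. The libraries were made from whole retina, so fewer cells of a type and less RNA per cell cannot be told apart.

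Across the 6 genes, the transcripts of Tpm4 and Tpm2 fell with stage, and those of Tpm1, Tpm3 and Actg1 stayed within a range of 1.19-fold to 1.38-fold. Actb depended on which column was read. At E13.5 the order of summed levels was Actb at 665 CPM, Tpm4 at 214, Tpm1 at 173, Actg1 at 106, Tpm3 at 88.5 and Tpm2 at 29.9. At P21 it was Actb at 861 CPM, Tpm1 at 155, Tpm3 at 112, Actg1 at 76.4, Tpm4 at 48.8 and Tpm2 at 8.49. Tpm4 thus moved from the second to the fifth place. Neighbours in these orders had R1 and R2 values that did not overlap, except that R2 of Actb at E13.5 (63.8 CPM) lay below both columns of Tpm4, Tpm1, Actg1 and Tpm3. At P0 Actg1 (108 in R1 and 104 CPM in R2) and Tpm3 (90.9 and 106 CPM) overlapped. Of the 6 genes, 2 passed the test of a linear trend over the 6 libraries (edgeR quasi-likelihood, adjusted p of 0.05 or less), both falling, beside 30.2% of the 14452 genes tested, of which 17% rose and 13.2% fell.

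Tpm4, a tropomyosin of the cytoplasm of many cell types, gave 213, 173, 141, 153, 102 and 62.0 CPM in R1 over the stages from E13.5 to P21. R2 gave 213, 179, 144, 153, 85.8 and 35.0 CPM. Both columns were highest at E13.5 and lowest at P21, and neither column of P6 or P21 reached those of any earlier stage. The P21 level was 0.228 of that at E13.5, with an exact 95% interval for counting error of 0.192 to 0.268. The fitted log2 change was −1.83 ± 0.34 (SE, n = 6 libraries; edgeR quasi-likelihood, adjusted p = 0.00977). Nearly all of it came from the 3′-most site, which held 93.1% to 96.7% of the gene's tags at every stage, while sites 1 and 2 held 2 to 37 and 4 to 24 tags per library.

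Tpm2, known from muscle and fibroblasts, was the least abundant of the 4 tropomyosins in every library. R1 gave 27.5, 30.8, 31.0, 28.8, 7.49 and 8.78 CPM from E13.5 to P21, and R2 gave 32.2, 45.1, 30.03, 21.2, 7.32 and 8.07 CPM. The prenatal and P0 values all lay above those of P6 and P21, which rest on 30 and 31 tags. The ratio of P21 to E13.5 was 0.284, with an exact 95% interval of 0.184 to 0.427. The fitted log2 change was −2.30 ± 0.64 (SE, n = 6; edgeR, adjusted p = 0.0326), and the adjusted p rose to 0.0718 with R1 alone (a setting in which 11.3% of genes fell), 0.0984 without E15.5, 0.0504 without E18.5, 0.0751 without P6 and 0.177 without P21. The summed level of 3 mesenchyme markers with a site (Col1a1, Col1a2, Col3a1, with Lum and Dcn having none) was 63.3 CPM at E13.5, 6.41 at P6 and 17.3 at P21, while 4 smooth muscle and pericyte markers (Acta2, Des, Rgs5, Pdgfrb) summed to 29.6 CPM at E13.5 and 153 at P21. Most of that rise was Rgs5, from 6.85 to 104 CPM. Pdgfrb went from 13.7 to 31.0 CPM, Acta2 from 4.11 to 14.2 and Des from 4.93 to 3.84. The defining contractile genes Tagln, Myh11 and Cnn1 had no site, and the part of these cells in the Tpm2 values was not tested.

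The 2 Tpm2 sites lay 972 bases apart in one last exon, so they give the same protein end with a short or a long 3′ UTR. The distal site held 45.9% of the gene's tags at E13.5, 35.7% to 37.1% from E15.5 to P6 and 58.1% at P21, where the 95% Wilson interval ran from 40.8% to 73.6%. Neither site passed the test of a change relative to the gene (adjusted p = 1 for both; edgeR diffSpliceDGE).

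**Figure D1:**
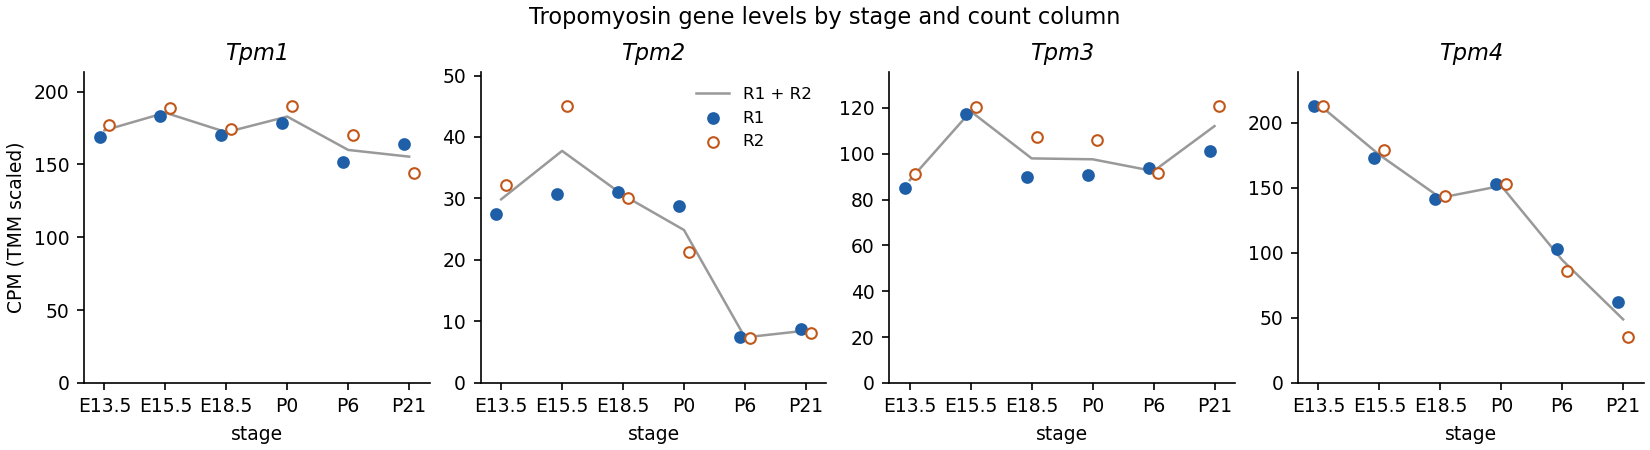
Level of each tropomyosin gene (CPM, TMM scaled, linear axis from 0) at the 6 stages, 1 library each; filled points are R1, open points R2 and the line joins the 2 columns summed. Tpm4 went from 214 to 48.8 CPM and Tpm2 from 29.9 to 8.49 CPM, while Tpm1 and Tpm3 stayed between 155 and 186 and between 88.5 and 118 CPM.

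Tpm1 and Tpm3 are known for both muscle and cytoplasmic isoforms, and their gene totals passed no test. Tpm1 gave 173, 186, 172, 183, 160 and 155 CPM from E13.5 to P21, a fitted log2 change of −0.19 ± 0.16 (SE, n = 6; edgeR, adjusted p = 0.378). Tpm3 gave 88.5, 118, 98.0, 97.6, 92.4 and 112 CPM, a log2 change of 0.079 ± 0.22 (edgeR, adjusted p = 0.811), and its fitted direction turned without E13.5 or without P21. Tpm1 was lowest at P21 in R2 (144 CPM) and at P6 in R1 (152 CPM), and Tpm3 was lowest at E13.5 in both columns, so no stage stood apart in both genes.

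The sum of the 4 tropomyosins was 506, 517, 443, 457, 354 and 325 CPM from E13.5 to P21, highest at E15.5 and lowest at P21. Its makeup changed order. Tpm4 made up 42.3% of tropomyosin tags at E13.5 (95% Wilson interval 40.1% to 44.6%) and 15.0% at P21 (13.1% to 17.2%). Tpm1 made up 34.3% (32.1% to 36.5%) and 47.8% (45.0% to 50.7%), and Tpm3 17.5% (15.8% to 19.3%) and 34.5% (31.9% to 37.3%). At P21 the columns differed for Tpm3, with 30.1% in R1 and 39.3% in R2, and for Tpm4, with 18.5% and 11.3%, while Tpm1 (48.9% and 46.8%) and Tpm2 (2.61% and 2.62%) had overlapping intervals. Intervals and floors cover counting error only, since PCR copies are not independent molecules.

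The last exons behind the Tpm3 and Tpm1 totals were read from their sites. Of 16 member sites tested for a change relative to their gene (Actg1 has a single site), 2 were called, beside 0.638% of the 21633 sites tested. These were Tpm3 site 1, which rose (0.458% of sites did), and Tpm1 site 1, which fell (0.18%). The tags say where transcripts ended, not which protein was made.

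Tpm3 site 1 (3′ edge chr3:90092127, score 18.0 in the authors' table) lies 193 bases past the stop codon in the last exon of Tpm3-205, the only annotated coding transcript with this end, and is the one member end with ATTAAA. From E13.5 to P21 it had 4, 17, 7, 11, 33 and 63 tags in R1 and 2, 2, 2, 7, 28 and 75 tags in R2. Both columns were higher at P6 and P21 than at any earlier stage, and R2 stayed at 2 tags, under the floor, before P0. As a share of Tpm3 tags, columns summed, this was 1.86%, 4.23%, 2.00%, 5.81%, 16.3% (95% Wilson interval 12.9% to 20.3%) and 33.7% (29.3% to 38.5%). At E15.5 the share was 7.56% in R1 and 0.893% in R2, with intervals that did not overlap, and at P21 it was 34.2% and 33.3%. The site's level went from 1.64 to 37.8 CPM, 23.0-fold, from 6 tags at E13.5. Relative to the gene the log2 change was 4.14 ± 0.69 (SE, n = 6; edgeR diffSpliceDGE, adjusted p = 0.00796), and 24 of the 99 sites called as rising had a larger one. It passed in each column alone, with a log2 change of 3.35 in R1 (adjusted p = 0.0348; 0.152% of sites rose) and 6.32 in R2 (adjusted p = 0.00165; 0.403% rose). The call was lost without E13.5 (4.43, adjusted p = 0.0650) and without P21 (3.44, adjusted p = 0.366), a setting in which no site of the series passed.

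The other 2 Tpm3 ends lie in separate last exons further downstream. Site 2 (Tpm3-203), 6653 bases past site 1, took 18.0%, 29.6%, 36.3%, 28.4%, 42.4% and 47.2% of the gene's tags from E13.5 to P21. Site 3 (Tpm3-201 and others), 2119 bases past site 2 and with a 3′ UTR of 1289 bases, took 80.2%, 66.1%, 61.7%, 65.8%, 41.3% and 19.1%. In level, site 3 was at 70.9 CPM at E13.5 and 21.4 CPM at P21, while site 2 was at 15.9 and 52.9 CPM. Site 3 led in every library up to P0, sites 2 and 3 had overlapping intervals at P6, and at P21 site 3 was the lowest of the 3 in both columns. Neither change passed after adjustment (log2 change −1.68 ± 0.49, adjusted p = 0.175 for site 3, and 1.09 ± 0.52, adjusted p = 0.691 for site 2; edgeR diffSpliceDGE). The summed photoreceptor markers rose over the same libraries, 806 to 6806 CPM, and so did Müller glia markers, 769 to 2114 CPM (2 of 5 called). Pigment epithelium markers went from 16.2 to 308 CPM (3 of 4 called as rising, with Rpe65 having no site). Smooth muscle and pericyte markers went from 29.6 to 153 CPM (1 of 4 called), mostly through Rgs5. Muscle contractile genes stayed low, with 3 of 7 skeletal muscle markers having a site (Acta1, Mylpf, Actn3) and summing to 22.2 CPM at E13.5 and 40.8 CPM at P21. The defining markers Ckm, Tnnt3, Tnni2 and Myog had no site. The part of any of these cell types in the Tpm3 shares was not tested.

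Tpm1 ends fell in 4 groups by last exon, here lettered A to D from 5′ to 3′. Exon A (Tpm1-201) holds site 1, exon B (Tpm1-203) holds sites 2 and 3, exon C (Tpm1-209) holds site 4, and exon D (Tpm1-202 and others) holds sites 5 and 6. The annotated exon of Tpm1-209 begins upstream of exon D and runs to the same end, so tags at sites 5 and 6 can come from either. Exon D took 53.4%, 51.2%, 48.9%, 63.7%, 60.2% and 68.6% of Tpm1 tags from E13.5 to P21, nearly all at site 6. Exon B took 35.2%, 34.7%, 36.5%, 29.3%, 28.5% and 14.1%, the last being 17.7% in R1 and 10.1% in R2. Within exon B the distal site 3, 82 bases past site 2, held 20.6% to 27.6% of the tags at every stage, with overlapping Wilson intervals. Exon C took 4.74% at E13.5 and 16.6% at P21, with R1 and R2 at 5.14% and 4.31% and at 13.4% and 20.1%, and the values between (9.10%, 11.03%, 5.68% and 10.5%) followed no steady order. None of sites 2 to 6 passed the test relative to the gene, the lowest adjusted p being 0.432 for site 2 (log2 change −1.13 ± 0.41; edgeR diffSpliceDGE).

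Tpm1 site 1, the end of exon A, is named although it held only 3.11% of the gene's tags, and was chosen after its values were seen. From E13.5 to P21 it had 23, 14, 14, 6, 4 and 4 tags in R1 and 19, 21, 14, 2, 1 and 0 tags in R2. The 3 embryonic stages were higher than the 3 postnatal ones in both columns. Its share of Tpm1 tags was 6.64% at E13.5 (95% Wilson interval 4.95% to 8.85%) and 0.706% at P21 (0.275% to 1.80%). The log2 change relative to the gene was −3.59 ± 0.67 (SE, n = 6; edgeR diffSpliceDGE, adjusted p = 0.00796), and 9 of the 39 sites called as falling had a larger one. With R1 alone, where 0.0554% of sites fell, it was −2.53 and not called (adjusted p = 0.185). With R2 alone it was −5.25 (adjusted p = 0.00950), and the share of all sites that fell in that setting is not given here. The call was also lost without E13.5, E15.5, P6 or P21 (adjusted p = 0.0522 to 0.106), with log2 changes of −3.98 to −3.35.

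**Figure D2:**
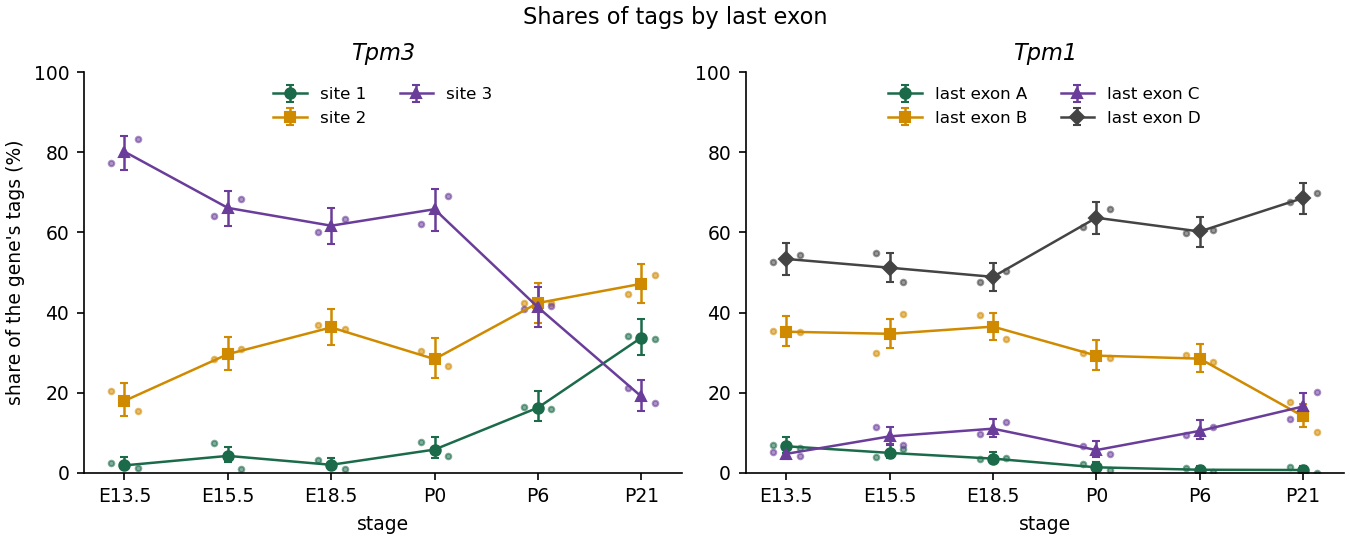
Share of each gene's tags (%, linear axis) by Tpm3 site (each a separate last exon) and by Tpm1 last exon A to D at the 6 stages; markers and lines show R1 and R2 summed, bars the 95% Wilson intervals, and small points the R1 (left) and R2 (right) columns. Tpm3 site 3 went from 80.2% to 19.1% and site 1 from 1.86% to 33.7%, and Tpm1 exon B from 35.2% to 14.1%.

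Actb was the most abundant of the 6 genes in the summed columns, with 665, 618, 524, 722, 992 and 861 CPM from E13.5 to P21. The fitted log2 change was 0.62 ± 0.25 (SE, n = 6; edgeR, adjusted p = 0.0985). The columns behind this sum differed widely. R1 gave 1182, 1156, 937, 1375, 975 and 930 CPM from E13.5 to P21, and R2 gave 63.8, 67.1, 47.9, 64.3, 1015 and 780 CPM. At the 4 stages up to P0 every R1 value lay far above R2, by up to 21.4-fold, and at P6 and P21 the columns lay close together. With R1 alone the log2 change was −0.27 (edgeR, adjusted p = 0.424), and with R2 alone it was 4.61 (adjusted p = 0.0240; 16% of genes rose in that setting), so the direction of Actb in these data differs between the columns. Actb also has many processed pseudogenes, and how reads that match several places were counted is not given in the sources used here, so its counts are uncertain to that extent.

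The gap sat at 1 of the 2 Actb ends. Site 2, the distal end at the annotated 3′ terminus with 98.7% of the gene's tags, had 2294, 2193, 2277, 2178, 2072 and 1684 tags in R1 from E13.5 to P21, and 83, 99, 78, 82, 1926 and 1443 tags in R2. Site 1, 183 bases upstream in the same 3′ UTR and without a signal hexamer in the window searched, had 24, 24, 21, 16, 10 and 10 tags in R1 and 26, 26, 24, 18, 15 and 6 tags in R2. Site 1 showed no gap between columns at any stage. Its share of Actb tags was therefore 0.729% to 1.08% in R1 but 18.0% to 23.9% in R2 at the stages up to P0, and 0.414% to 0.773% in both columns at P6 and P21. With the columns summed, site 1 had a log2 change relative to the gene of −2.19 ± 0.53 (edgeR diffSpliceDGE, adjusted p = 0.0969). That sum joins unlike columns, since the change was −1.09 with R1 alone (adjusted p = 1.0) and −6.29 with R2 alone (adjusted p = 0.299).

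Actg1, which has 1 site (3′ edge chr11:120345688), showed no gap either. R1 gave 104, 104, 83.6, 108, 88.5 and 80.1 CPM from E13.5 to P21, and R2 gave 107, 100.4, 92.0, 104, 91.0 and 71.5 CPM. Both columns were lowest at P21, and the fitted log2 change was −0.37 ± 0.20 (SE, n = 6; edgeR, adjusted p = 0.196). Of all cytoplasmic actin tags, Actb made up 91.7% to 92.7% in R1 at every stage. In R2 it made up 34.2% to 40.1% at the stages up to P0, then 91.8% at P6 and 91.6% at P21.

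**Figure D3:**
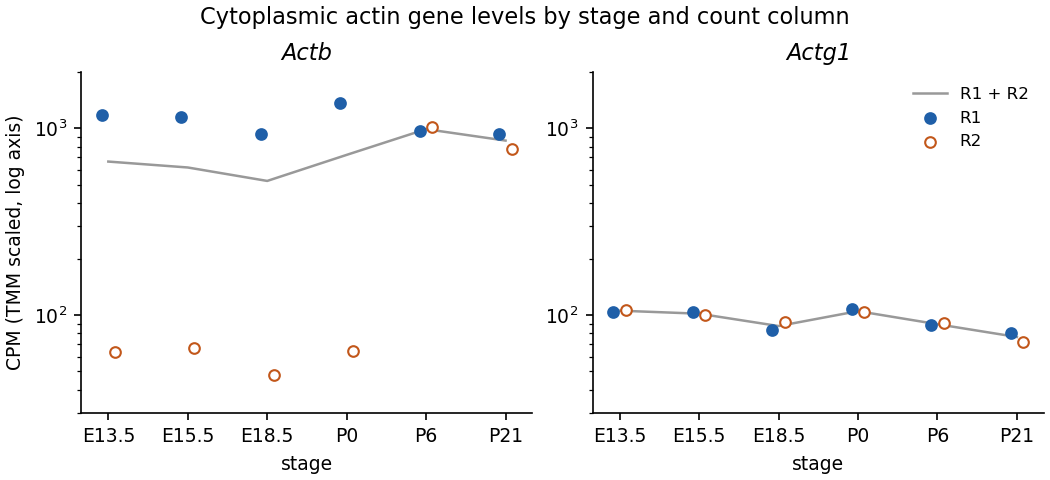
Level of Actb and Actg1 (CPM, TMM scaled, log axis) at the 6 stages, 1 library each; filled points are R1, open points R2 and the line joins the columns summed. R2 of Actb sits between 47.9 and 67.1 CPM up to P0 and at 1015 and 780 CPM at P6 and P21, while the columns of Actg1 lie together throughout.

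Few other sites with many tags at every stage had this pattern. Among sites with at least 100 tags in the larger column of a stage, 0.0602% (P6) to 0.848% (E15.5) differed by 8-fold or more, always with R1 the higher. Of the 4091 sites that reached 100 tags at all 6 stages, 8 were at least 8-fold higher in R1 at each of E13.5, E15.5, E18.5 and P0 and under 8-fold apart at P6 and P21. Among them were the distal Actb site and 1 site each of Tuba1a, Gm7172, Pde6a and Gnat1. Tuba1a, an α-tubulin gene of neurons, had 1579 tags in R1 and 33 in R2 at E13.5, and 1464 and 1314 at P6. Pde6a and Gnat1 encode a phosphodiesterase subunit and a transducin subunit of rods. Sites outside the 8 also had a gap at E13.5. A Ptma site had 347 tags in R1 and 1 in R2 (149 and 105 at P6), and a Sag site 254 and 13 (738 and 687). Summed photoreceptor markers were at 3272 CPM in R1 and 274 in R2 at E15.5, and at 1568 and 602 at E18.5. They were at 3584 and 737 CPM at P0, and at 4709 and 4932 CPM at P6. Of the other member sites only Tpm1 site 6, Tpm4 site 3 and the Actg1 site reached 100 tags at all 6 stages. None of these was among the 8, and the remaining member sites could not be counted. The gene totals of the 4 tropomyosins differed between columns by 1.77-fold at most, in Tpm4 at P21. Single sites with few tags could differ more, as Tpm3 site 1 did at E15.5, with 17 tags in R1 and 2 in R2.

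**Figure D4:**
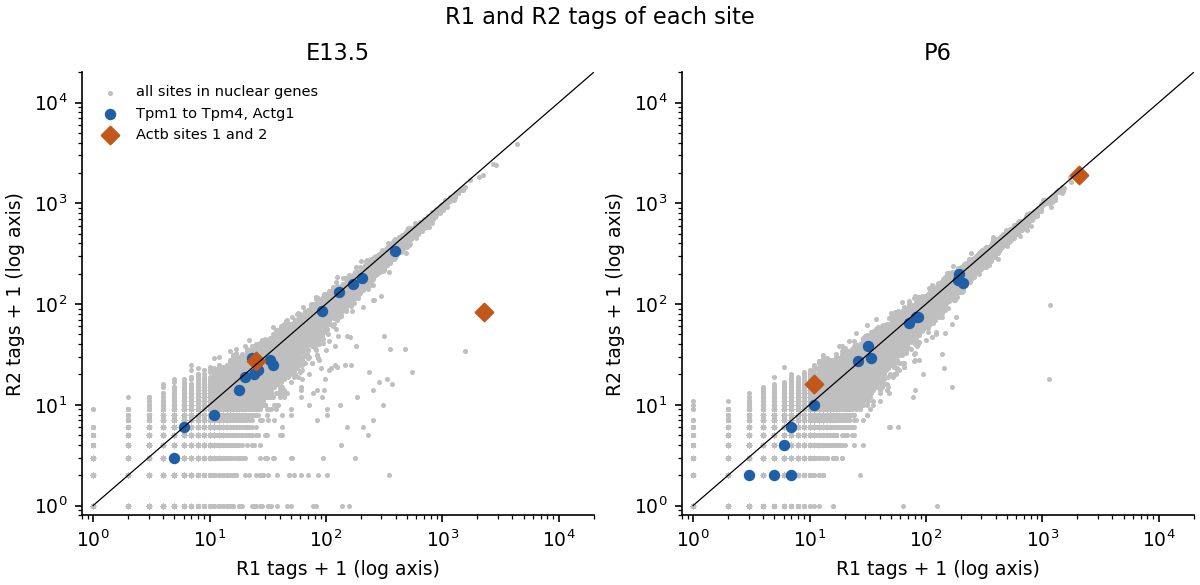
Tags of each site in nuclear genes in R1 against R2 (both plus 1, log axes, line of equality) at E13.5 and P6; grey points are all sites, blue circles those of Tpm1 to Tpm4 and Actg1, and orange diamonds the 2 sites of Actb. At E13.5 the distal Actb site lies far off the line with 2294 against 83 tags, and at P6 near it with 2072 against 1926.

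Genes whose levels ran most like each member were found by Pearson's r of log2(CPM + 1) over the 6 libraries, among 9787 genes with a mean of at least 20 CPM, as a description of 6 points that share depth and scaling. For Tpm4 they were Mapk7 (r = 0.9997), Nkain1 (0.999) and Mettl2 (0.998), and for Tpm2 Sart3 (0.997), Tonsl (0.996) and Sec24b (0.996). Mapk7, a MAP kinase, went from 108 CPM at E13.5 to 25.5 CPM at P21, and Tonsl, a DNA repair factor, from 47.9 to 14.0 CPM. Pearson's r takes no account of the size of a change. Sart3 (127 CPM at E13.5 and 93.4 at P21) and Sec24b (113 and 102) fell far less than Tpm2. For Tpm1 they were Anapc2 (0.994) and Lrrn2 (0.987), for Actg1 Smarcb1 (0.994), Txnrd3 (0.992) and Nop14 (0.991), and for Tpm3, with the lowest values, Gm43738 (0.925), Tmed3 (0.921) and Capn15 (0.900). For summed Actb they were Gpkow (0.996), Ube3b (0.987) and Ndst1 (0.986), a likeness to a level on which R1 and R2 differ.

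Genes that build, cap, cut, cross-link and pull the filaments were read from 7 lists of 83 genes, of which 79 were tested. Of these, 21 fell and 5 rose, 26.6% and 6.33%, with a median log2 change of −0.36, beside 13.2% that fell, 17% that rose and a median of −0.024 over all genes (edgeR). Of the lists together 4 fell without P21, 6 without E13.5, 8 without E15.5, 12 without P6, 16 without E18.5 and 24 without P0. Over all genes 1903 fell with all stages, 421 without P21 and 421 to 2408 across the fits with a stage left out. List counts with a stage left out, here and below, are to be read beside that range, since the count over all genes moved too. In the list of monomer binding and filament turnover 7 of 16 fell, 43.8% beside 13.2% of all genes, and none rose. With a stage left out this count was 0 without P21, 1 without E13.5, 3 without E15.5 and 4 without P6. They included Pfn1 (profilin, which feeds actin monomers to growing ends), with 226 CPM at E13.5 and 57.5 at P21 and a log2 change of −1.60 (adjusted p = 0.00831), Gsn (gelsolin, which severs and caps, −1.88) and Cap1 (−2.01). Among cross-linkers and membrane linkers 5 of 13 fell and 1 rose, and 1 fell without E13.5, E15.5 or P21 and 2 without P6. Flna, which joins filaments into networks, went from 254 to 60.6 CPM (log2 change −1.77, adjusted p = 0.0140), and Msn, which ties filaments to the membrane, had −1.42. Fscn2, the photoreceptor fascin that bundles filaments, went from 5.21 to 282 CPM (4.91, adjusted p = 0.00930).

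Among filament end cappers 2 of 10 rose and 2 fell, 20% each, near the 17% and 13.2% of all genes, so the counts do not set this list apart. None fell without E15.5 or P21. Tmod1, a tropomodulin that caps the pointed end of tropomyosin-coated filaments, had 1.92, 4.75, 8.29, 14.8, 26.4 and 36.7 CPM from E13.5 to P21, a step up at each stage, with a log2 change of 4.10 ± 0.44 (SE, n = 6; edgeR, adjusted p = 0.00276). Its relative Tmod3 went from 92.6 to 33.2 CPM (−1.22 ± 0.34, adjusted p = 0.0320). Eps8, which caps and bundles at the barbed end, went from 5.75 to 66.6 CPM (3.36, adjusted p = 0.00498).

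The next lists rest on small counts, to be read beside the 13.2% of all genes that fell and the 17% that rose. Nonmuscle myosin II, the motor that pulls on these filaments, had 3 of 11 genes that fell (27.3%; 1 without E13.5) and none that rose: Myl12a (log2 change −1.51), Myh10 (−1.04) and Myh9 (−1.02). Of 18 nucleation genes 3 fell (16.7%; none without P21) and 1 rose (5.56%), with Wasf2 at −1.07 and Arpc3 at −0.71 against Wasf3, its neuronal relative, at 0.86. In the list of the serum response factor pathway and adhesion 1 of 8 fell (12.5%), Cnn3 (calponin 3), from 444 to 153 CPM (−1.51, adjusted p = 0.00328), while Tln1 (−0.20, adjusted p = 0.406) and Zyx (−0.58, adjusted p = 0.143) did not pass (edgeR). Of the muscle actins Acta1 rose (2.44, adjusted p = 0.0312) and Actc1 and Acta2 did not pass, and all 3 stayed at or below 31.1 CPM in every library, far under summed Actb. Actg2 had no site.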

How the data were processed

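Per the file headers, the authors' table holds tag counts of poly(A) sites in 12 columns, R1 and R2 for each of 6 stages, and an enrichment score per site that the authors deposited without its scale. Every score was 3 or more and every site had at least 41 tags. Per the submitters' processing notes, BWA 0.7.5a-r405 and mm10 were used. Clustering of sites, removal of duplicates, treatment of reads that match several places and the meaning of R1 and R2 are not given in the sources used here.

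Sites were placed on GENCODE M21 by their 3′ edge. In all, 29094 sites lay in nuclear genes, and 1433 lay in more than 1 gene. R1 and R2 were added per stage, which also gave 1 value where they disagree. Abundance was tested with edgeR 4.0.16 (R 4.3.3): TMM, quasi-likelihood F test of 1 linear term of stage order, genes reaching 1 CPM in 2 or more libraries, Benjamini-Hochberg adjustment over all genes. Log2 changes span all 5 steps of stage order, with 4 residual degrees of freedom. Sites were tested relative to their gene with diffSpliceDGE over 7020 genes. With 1 sample per stage, p values judge the slope against departures from a straight line over 6 libraries, not against spread between animals. On simulated counts, 84% of genes with a log2 change of −2 and 2% with −1 were called, as were 76% with 2 and 18% with 1, and 54% of sites with a log2 change of 2 either way. Only a small part of the genes and sites was given a change there, for genes at a mean of at least 20 CPM. In the data 30.2% of genes were called. The adjusted p depends on that share, so the simulated rates cannot be carried over to these fits.

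Alternatives were each column alone, DESeq2 1.42.0 size factors and its Wald test, no filter on low counts, days after conception, no downstream flank and leaving out each stage. Members, gene lists and tests were chosen with earlier results of these data known. All 6 members were named, sites with at least 5% of their gene's tags, up to 3 genes per list (called ones with the largest change, filled by the most abundant) and the 3 genes most like each member. A few items that these rules picked are not reported here. Mkl1 and Mkl2 were matched as Mrtfa and Mrtfb. Protein and genome sequence were not used here.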

Additional observations from a re-analysis of the deposited data

How the results depend on the processing

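Tpm4 was called as falling in every alternative run, at −2.09 to −1.21 with a stage left out. Tpm2 was −1.91 with R1 alone, and −3.10 to −1.87 with a stage left out, no longer called without E15.5, E18.5, P6 or P21. Tpm3 ran from −0.12 (without E13.5) and −0.054 (without P21) to 0.29, never called. Actb was −0.27 with R1 alone and 4.61, called, with R2 alone. With a stage left out, Tpm1 ran from −0.31 to −0.076, Actg1 from −0.41 to −0.17 and Actb from 0.45 to 0.94, with no change of call. For sites relative to their gene, Tpm4 site 2 (−0.37) was 0.29 with R1 alone and −0.75 to 0.062 with a stage left out, highest without E15.5. With a stage left out, Tpm1 site 3 ran from −1.09 to 0.093, Tpm2 site 1 from −0.57 to 0.22 and Tpm2 site 2 from −0.28 to 0.72, the sign turning without P21, and none of these was called. Over all genes, 2464 rose (876 to 2655 with a stage left out) and 1903 fell (421 to 2408). Over all sites, 99 rose, 33 with R1 alone, 64 with days after conception and 0 to 126 with a stage left out. In all, 39 fell, 12 with R1 alone and 0 to 67 with a stage left out. The count of 0 came without P21, where diffSpliceDGE gave 1002 sites at an unadjusted p under 0.05, against 1561 with all stages. With no trend at any site, about 0.05 of the sites tested (21633 with all stages) would have such a p. Of the pathway genes, 5 rose (10 with DESeq2, 2 to 9 with a stage left out) and 21 fell (4 to 24). A fit with a stage left out has fewer libraries, and no other cause was tested. No paired analysis was possible because each stage had 1 sample and the labels give no replicate numbers. Depth limits the rare ends, such as Tpm1 site 5, with 1 to 12 tags per library.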

Other observations

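Related loci that were looked up by name gave few tags of their own. Pseudogenes of Actb, Tpm1, Tpm2 and Tpm4 were not looked up. The processed pseudogenes Tpm3-rs2 and Actg-ps1, the gene Tpm3-rs7 and the actin genes Actbl2 and Actg2 had 0 sites in the table, while Actc1, Acta1 and Acta2 had 1 site each with 219, 209 and 164 tags over the 6 libraries, against 16409 at the distal Actb site alone. No site lay antisense inside any of the 6 genes.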
